A study of Rattus norvegicus with 14 samples.

Results

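Ucp1, Cidea, Ppargc1a, Cox8b, Cox7a1, Dio2, Prdm16, Cpt1b and Fabp3 are genes used to mark heat-producing brown and beige fat, and several of them are also expressed in skeletal muscle. They were chosen by symbol, and a probe was assigned to one of them where its accession, without version, carried that symbol in the rat RefSeq gene table. Of the 9 genes, 7 had a matched probe, and Cox7a1 and Prdm16, which matched none, are not analysed here. After a filter on dim probes 5 of them, Cox8b, Cpt1b, Fabp3, Cidea and Dio2, were among the 18609 genes tested. Ucp1 and Ppargc1a had a probe but did not pass the filter.

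The study measured gene expression with 1-colour Agilent arrays in skin taken from male CD hairless rats at the end of a chronic exposure to millimetre waves. The exposed group was 6 rats that received 94 GHz for 3 h per day on 3 days per week over 5.5 months. The sham group was 8 sham-exposed rats. All rats were housed in pairs and belong to a hairless stock, and no age is stated in the labels. Each array holds the RNA of 1 animal, from 15 to 20 mg of biopsy, and the labels do not say how deep a biopsy reached. All 6 keratinocyte markers with a matched probe passed the filter. Arrays differed in overall brightness, with a 75th percentile of 804.5 scanner units in sham 6, the lowest, and 1967 in sham 2, the highest. Values below are log2 signals relative to that percentile, so 0 is the 75th percentile of the array and a step of 1 doubles the signal. A called gene is one with a Benjamini-Hochberg adjusted p under 0.05 in limma over all genes tested.

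Brown and beige adipocytes burn fatty acids to make heat, because the uncoupling protein UCP1 lets protons return across the inner mitochondrial membrane without making ATP. Adrenergic signals, the coactivator PGC-1α (Ppargc1a), the transcriptional regulator PRDM16 and thyroid hormone activated by the deiodinase DIO2 turn this programme on. Skeletal muscle shares with brown fat a dense set of mitochondria and part of the machinery for burning fatty acids, and rat skin carries a thin sheet of skeletal muscle beneath it. Each gene was therefore set against Ckm (muscle creatine kinase) and Acta1 (skeletal muscle actin), whose mean log2 value is called the muscle index, and against Adipoq, the adipocyte hormone adiponectin.

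Of the 5 thermogenic genes tested, 1, Cox8b, was called with the muscle genes, beside a background of 0.349% over all genes. Cox8b spanned 95.1-fold across the 14 arrays, and its lowest signal was a dim 25.1 scanner units. Cpt1b and Fabp3 spanned 2.08-fold and 2.16-fold and were highest in the 2 arrays with the most Ckm signal. Cidea was detected in every array and varied within a 1.75-fold range with no called relation to muscle or to Adipoq. Dio2 was near background, and Ucp1, the gene that defines the programme, was not well above background on any array. None of the 5 tested genes was called between exposed and sham rats, where the background was 0.0%.

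Ucp1 was represented by 1 probe printed in 10 spots per array. Its log2 signal had a lowest, median and highest value of -8.06, -7.44 and -7.30 in exposed rats, against -8.32, -7.11 and -5.46 in sham rats. In scanner units these signals lay between 5.35 and 21.5. No array had most of its spots well above background, but 3 of 10 spots in sham 2, 4 of 10 in sham 6 and 1 of 10 in sham 7 were marked so by the scanner software. The sham 6 value of -5.46 came from 18.8 scanner units on the array with the lowest 75th percentile. Since neither group was well above background, no fold is given for Ucp1.

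Ppargc1a, the coactivator that drives mitochondrial biogenesis in brown fat and in muscle, had 1 probe that was not well above background on any array. Its log2 signal had a lowest, median and highest value of -8.16, -7.62 and -7.20 in exposed rats, against -8.12, -7.58 and -6.69 in sham rats. The ranges overlapped almost fully. Its relatives Ppargc1b and Pprc1, which encode related coactivators, were well above background on all 14 arrays.

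Dio2, which converts thyroxine to active thyroid hormone, was well above background on 7 of 14 arrays, namely exposed 1, 4 and 6 and sham 2, 3, 5 and 7. Its log2 signal had a lowest, median and highest value of -7.62, -5.87 and -5.52 in exposed rats, against -6.87, -6.29 and -5.45 in sham rats. The lowest array was exposed 5, where the probe was not well above background, and the other exposed values lay within the range of the sham group. At 8.64 to 37.1 scanner units Dio2 was measured close to its detection limit.

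Cox8b encodes the muscle and heart isoform of subunit 8 of cytochrome c oxidase, the last complex of the respiratory chain, and in rodents it is also a marker of brown fat. Its log2 signal was -4.88, 0.41, -4.18, -5.67, -2.75 and -2.94 in exposed 1 to 6. It was -4.99, -6.17, -6.03, -4.74, -0.76, -3.32, -1.82 and -5.65 in sham 1 to 8. In scanner units its lowest, median and highest signals were 25.1, 56.0 and 1913, and the probe was well above background on all 14 arrays. The dimmest signals counted as well above background lay between 10.8 and 18.3 scanner units, depending on the array. The size of a fold that starts near them is uncertain. Exposed 2, sham 5 and sham 7 were the highest arrays and sham 2 and sham 3 the lowest, so each group held both high and low animals and the groups overlapped. Ckm was 3.80 in exposed 2, 2.60 in sham 5 and 1.77 in sham 7, which were also its 3 highest arrays. At the low end Ckm was -4.55 in sham 2, -4.59 in sham 3 and -5.21 in sham 8. Acta1 had its highest values in the same 3 arrays, at 3.52, 1.90 and 1.24. In bulk tissue, fewer cells of a type and less RNA per cell cannot be told apart, and this holds for every relation with Ckm, Acta1 or Adipoq below.

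**Figure D1:**
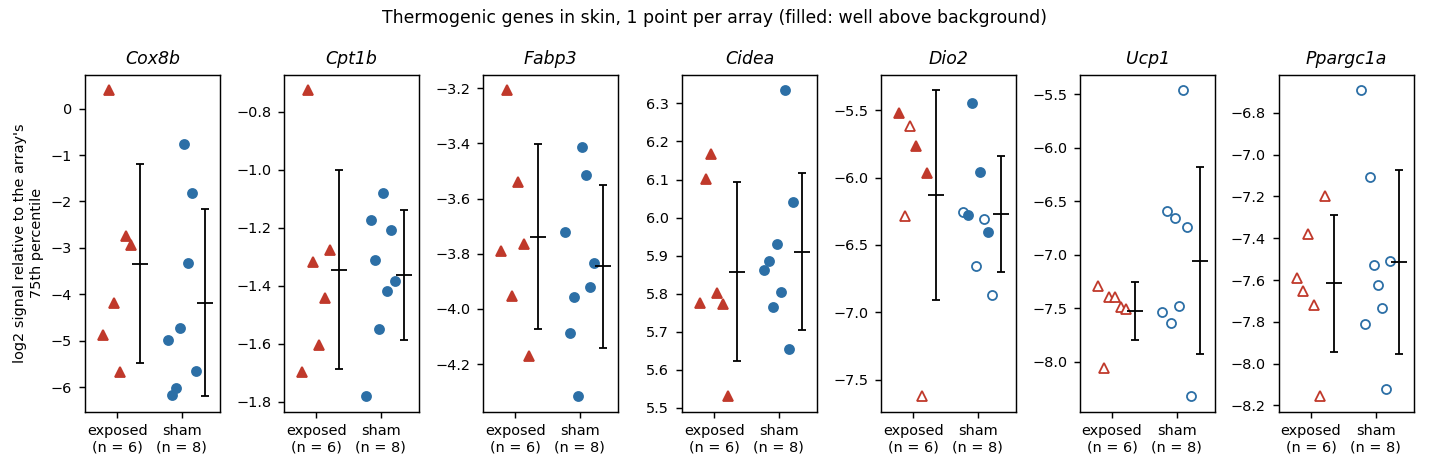
Log2 signal relative to the array's 75th percentile for the 7 thermogenic genes with a probe, exposed rats (n = 6, left in each panel) and sham rats (n = 8), with 1 point per array, filled where the probe was well above background. Bars give the mean and SD of each group, the vertical scale differs between panels, and the Cox8b panel runs from -6.17 to 0.41 while the Cidea panel runs from 5.53 to 6.34.

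The sequences just upstream of the start sites of 4 genes are shown because they belong to the isoforms the results turn on, namely Cox8b, the other muscle isoform of the complex that followed Ckm (Cox6a2), the widely expressed paralog that did not (Cox8a) and Ucp1. Each is the 250 bases before the annotated start from RefSeq, build GRCr8, read 5′ to 3′ on the gene's strand, with every E-box (letters CANNTG, which reads the same pattern on both strands) in capitals. The windows are chr1:205408274-205408523 for Cox8b, chr1:192219717-192219966 for Cox6a2, chr1:213833624-213833873 for Cox8a and chr19:41721422-41721671 for Ucp1, each on the minus strand.
Cox8b: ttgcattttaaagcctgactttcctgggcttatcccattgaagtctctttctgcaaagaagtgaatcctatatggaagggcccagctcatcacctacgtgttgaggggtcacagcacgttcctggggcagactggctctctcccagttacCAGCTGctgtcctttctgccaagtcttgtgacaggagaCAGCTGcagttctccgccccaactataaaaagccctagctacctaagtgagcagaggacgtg
Cox6a2: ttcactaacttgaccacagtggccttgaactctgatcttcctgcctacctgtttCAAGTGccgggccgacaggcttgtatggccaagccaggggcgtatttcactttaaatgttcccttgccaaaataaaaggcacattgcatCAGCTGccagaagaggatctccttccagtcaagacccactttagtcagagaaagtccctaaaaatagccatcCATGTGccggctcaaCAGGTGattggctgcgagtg
Cox8a: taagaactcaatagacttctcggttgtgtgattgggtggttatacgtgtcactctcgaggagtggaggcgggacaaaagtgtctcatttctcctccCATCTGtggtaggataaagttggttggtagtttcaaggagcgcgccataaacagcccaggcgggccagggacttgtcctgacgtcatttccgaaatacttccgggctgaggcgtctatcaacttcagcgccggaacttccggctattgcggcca
Ucp1: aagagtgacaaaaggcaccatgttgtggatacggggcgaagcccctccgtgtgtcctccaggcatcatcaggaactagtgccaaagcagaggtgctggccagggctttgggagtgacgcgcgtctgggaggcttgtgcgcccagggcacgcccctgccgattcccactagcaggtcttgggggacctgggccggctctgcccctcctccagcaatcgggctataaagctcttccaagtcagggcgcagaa
An E-box is the sequence bound by helix-loop-helix factors such as the muscle regulator MyoD, among many others. The Cox8b window held 2 E-boxes, starting at -100 and -62, both with the same 6 letters, and a TATAAA box at -39. The Cox6a2 window held 4 E-boxes and 1 match to the MEF2 motif at -50, the Cox8a window held 1 E-box at -154, and the Ucp1 window held none and had a TATAAA box at -30. Among all 33469 rat promoters in the table, 65.5% held at least 1 E-box in this window, 30.8% held 2 or more, 2.96% held the MEF2 motif and 12.9% held TATAAA on either strand. The counts in Cox8b are therefore common ones. They describe letters only and do not show binding.

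The relation with muscle was fitted for every gene in limma with the muscle index and Adipoq as joint terms over all 14 arrays. Cox8b rose by 0.71 log2 units per log2 unit of the muscle index (SE 0.05, 95% interval 0.61 to 0.82, adjusted p = 1.41e-06, n = 14). Across all 18606 genes tested 65 were called, all of them higher with the index, which is a background of 0.349%. Cox8b ranked 25th among those 65 by slope and was the only 1 of the 5 tested thermogenic genes to be called. The muscle index alone accounted for 92.2% of the variance of Cox8b, and adding Adipoq brought this to 94.0%. Blocking on slide gave a slope of 0.71, slide 3 taken alone with the index as the sole term gave 0.76, and the slope lay between 0.69 and 0.75 when each array was left out in turn.

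Seen gene by gene, Cox8b correlated with Ckm at Pearson r = 0.969 and Spearman rho = 0.930 over 14 arrays. The adjusted permutation p over 15 relations was 7.5e-05 for r and 3e-04 for rho, and the unadjusted p of 1e-05 for r is the smallest the 100000 resamples can give. Without exposed 2 and sham 5, the arrays farthest from the median of Ckm, r was 0.942. With Acta1, r was 0.937, rho was 0.851 and r without the same 2 arrays was 0.855. The r with Ckm was 0.994 within the exposed rats, 0.962 within the sham rats and 0.993 within slide 3, each past the threshold by exact permutation (adjusted p = 0.0104, 0.00893 and 0.0104). By rank, the relation with Ckm passed within the exposed rats and slide 3 (exact permutation, adjusted p = 0.0208 each) but not within the sham rats (rho = 0.833, exact permutation, adjusted p = 0.231). The r with Acta1 was 0.998 within the exposed rats and 0.890 within the sham rats, and the second did not pass (exact permutation, adjusted p = 0.0787). Sham 6 lay off the line, with a Cox8b value of -3.32 where Ckm was -2.28 and Acta1 -4.39, and it was also the array of lowest overall signal, whose part in this was not tested.

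**Figure D2:**
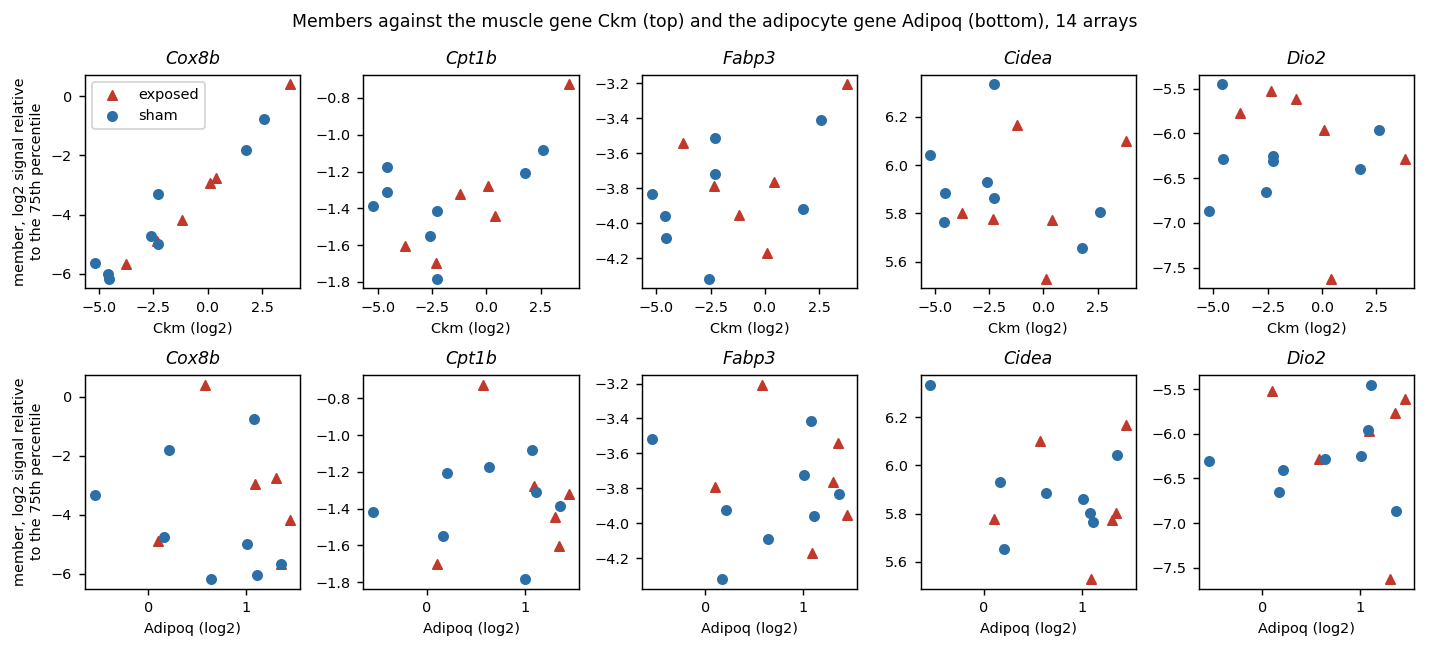
Log2 signal of the 5 tested thermogenic genes against Ckm (top row) and Adipoq (bottom row), with exposed rats as triangles and sham rats as circles, 14 arrays in all. Cox8b climbs with Ckm along the whole range, Cpt1b and Fabp3 are highest in the 2 arrays with the most Ckm, and none of the 5 genes was called with Adipoq.

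Cpt1b encodes the muscle isoform of carnitine palmitoyltransferase 1, which admits long-chain fatty acids to mitochondria and is also the main isoform of rodent brown fat. Its brighter probe was well above background on all 14 arrays, with a lowest, median and highest log2 signal of -1.70, -1.38 and -0.73 in exposed rats, against -1.78, -1.35 and -1.08 in sham rats. Exposed 2 and sham 5, the 2 arrays with the most Ckm signal, were its highest in each group, and exposed 1 and sham 1 its lowest. Its slope on the muscle index was 0.06 (SE 0.02, 95% interval 0.01 to 0.11), with an unadjusted limma p of 0.0153 that did not pass adjustment over all genes. The correlation with Acta1 was r = 0.674 with an adjusted permutation p of 0.0355, but rho was 0.446 (adjusted p = 0.467) and r was 0.282 without exposed 2 and sham 5, so the relation rested on those 2 arrays. With quantile normalization r was 0.653 and no longer passed (adjusted permutation p = 0.0511). Within single groups or slide 3 it did not pass (r = 0.911 in exposed rats, 0.490 in sham rats and 0.651 in slide 3, exact permutation). With Ckm, r was 0.585 and did not pass. A second, dim Cpt1b probe was well above background only on exposed 4.

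Cpt1b was also set against its paralogs inside each array, as a difference that does not depend on the scaling of the array. The log2 difference between Cpt1b and Cpt1a, the isoform of liver and most other tissues, rose with the muscle index by 0.08 per log2 unit (r = 0.856, adjusted permutation p = 4e-04 over 8 pairs, rho = 0.780, adjusted p = 0.00624). Without exposed 2 and sham 5, r was 0.705, and leaving out each array in turn gave 0.780 to 0.909. Within exposed rats, sham rats and slide 3 the r was 0.930, 0.794 and 0.849, and none passed by exact permutation (adjusted p = 0.05, 0.1 and 0.139). Cpt1a itself lay between -1.45 and -1.15 in exposed rats and between -1.32 and -0.95 in sham rats, and its slope on the index was -0.02 (95% interval -0.05 to 0.01). The rise of the difference therefore holds the slopes of both genes and is not that of Cpt1b alone. The difference between Cpt1b and Cpt1c, which is equally free of the array scaling, did not pass (r = 0.601, adjusted permutation p = 0.0659). Why the pair with Cpt1a gave the higher r was not tested. These paired differences were chosen after the data were seen.

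Fabp3, the heart and muscle fatty acid-binding protein, was well above background on all 14 arrays at 69.6 to 156 scanner units. Its log2 signal had a lowest, median and highest value of -4.17, -3.78 and -3.21 in exposed rats, against -4.32, -3.88 and -3.41 in sham rats. As with Cpt1b, exposed 2 and sham 5 were the highest of their groups. Sham 7, with the third highest Ckm, was at -3.92 and not raised. The slope on the muscle index was 0.05 (SE 0.03, 95% interval -0.02 to 0.11) and was not called. The correlation with Ckm was r = 0.444 (adjusted permutation p = 0.339) and turned to -0.0852 without exposed 2 and sham 5.

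The scale mattered for these 2 genes. On the linear signal, a choice made after the data were seen, r with Ckm was 0.856 for Cpt1b and 0.707 for Fabp3, both past the threshold (adjusted permutation p = 0.00206 and 0.019). Without exposed 2 and sham 5 they were 0.405 and -0.125, and the rank correlations, which no scale changes, were 0.402 and 0.433 and did not pass.

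Cidea encodes a lipid droplet protein that enlarges droplets in brown fat and, in mice, is also made in sebaceous glands. It had 2 probes, each of them well above background on every array. The brighter one had a lowest, median and highest log2 signal of 5.53, 5.79 and 6.17 in exposed rats, against 5.66, 5.87 and 6.34 in sham rats. The values overlapped almost fully, and the highest, in sham 6, again fell on the array of lowest overall signal. The dimmer probe averaged 4.21 ± 0.18 (SD, n = 6) in exposed rats and 4.27 ± 0.15 (SD, n = 8) in sham rats. By the brighter probe, which stood for the gene in the limma fits, the slope was -0.01 on the muscle index (95% interval -0.06 to 0.03) and -0.10 on Adipoq (95% interval -0.32 to 0.11), and neither was called. With quantile normalization the slope on Adipoq was 0.12, so its sign depended on the scaling. The muscle index and Adipoq together accounted for 11.1% of its variance, over arrays in which Ckm differed 515-fold.

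Dio2 had a slope of -0.03 on the muscle index (95% interval -0.16 to 0.09) and of -0.01 on Adipoq (95% interval -0.57 to 0.56). The second interval spans more than a log2 unit.

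No tested thermogenic gene was called with Adipoq. Across all 18606 genes 9 were called, a background of 0.0484%, of which 8 were higher with Adipoq (0.043%) and 1 lower (0.00537%), while 2031 had an unadjusted p under 0.05. Adipoq had a lowest, median and highest log2 signal of 0.10, 1.20 and 1.45 in exposed rats, against -0.55, 0.82 and 1.36 in sham rats, a 3.99-fold range. The slope of Cox8b was -0.45 (SE 0.23, 95% interval -0.95 to 0.04) and turned to 0.13 without sham 6. Cpt1b and Fabp3 lay at 0.02 (95% interval -0.20 to 0.24) and -0.01 (95% interval -0.29 to 0.28). The genes called with Adipoq included Pck1, an enzyme of glycerol synthesis in fat, at 1.39 and Cidec, the white-fat relative of Cidea, at 1.09 log2 units per unit of Adipoq (adjusted p = 0.00962 and 0.0159). Sham 6 had the lowest Adipoq value, and without it no gene was called with Adipoq in the limma fit, with 783 genes at an unadjusted p under 0.05.

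The paralogs of the thermogenic genes were measured beside them. Of 14 tested paralogs none was called with the muscle index, 366 of all genes having an unadjusted p under 0.05 in that limma fit, and 1, Cidec, was called with Adipoq. The shares called over all genes were 0.349% with the muscle index and 0.0484% with Adipoq. Cox8a, the subunit 8 isoform of most tissues, had a slope of -0.01 on the muscle index (95% interval -0.07 to 0.06). The difference between Cox8b and Cox8a inside each array rose with the index by 0.72 per log2 unit (r = 0.981, adjusted permutation p = 8e-05 over 8 pairs, and r = 0.959 without exposed 2 and sham 5). Its r passed by exact permutation in exposed rats, sham rats and slide 3 (r = 0.991, 0.983 and 0.984, adjusted p = 0.0111, 0.00813 and 0.0111), while its rho in sham rats did not (rho = 0.833, exact permutation, adjusted p = 0.123). Ucp2 and Ucp3, which are relatives of Ucp1, had slopes of 0.00 and -0.02 on the muscle index and were measured on all 14 arrays. Ucp3 thus did not follow the muscle genes, as it stayed within a 1.45-fold range over arrays in which Ckm differed 515-fold. Whether its probe reads Ucp3 alone was not tested. Fabp4, the adipocyte fatty acid-binding protein, had a slope of -0.03 on the muscle index and of 0.82 on Adipoq (adjusted p = 0.0665), and the keratinocyte form Fabp5 of -0.01 and -0.18. The pairs of Fabp3, Cidea and Dio2 with their paralogs did not pass, with r between -0.116 and 0.485 over 5 pairs.

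**Figure D3:**
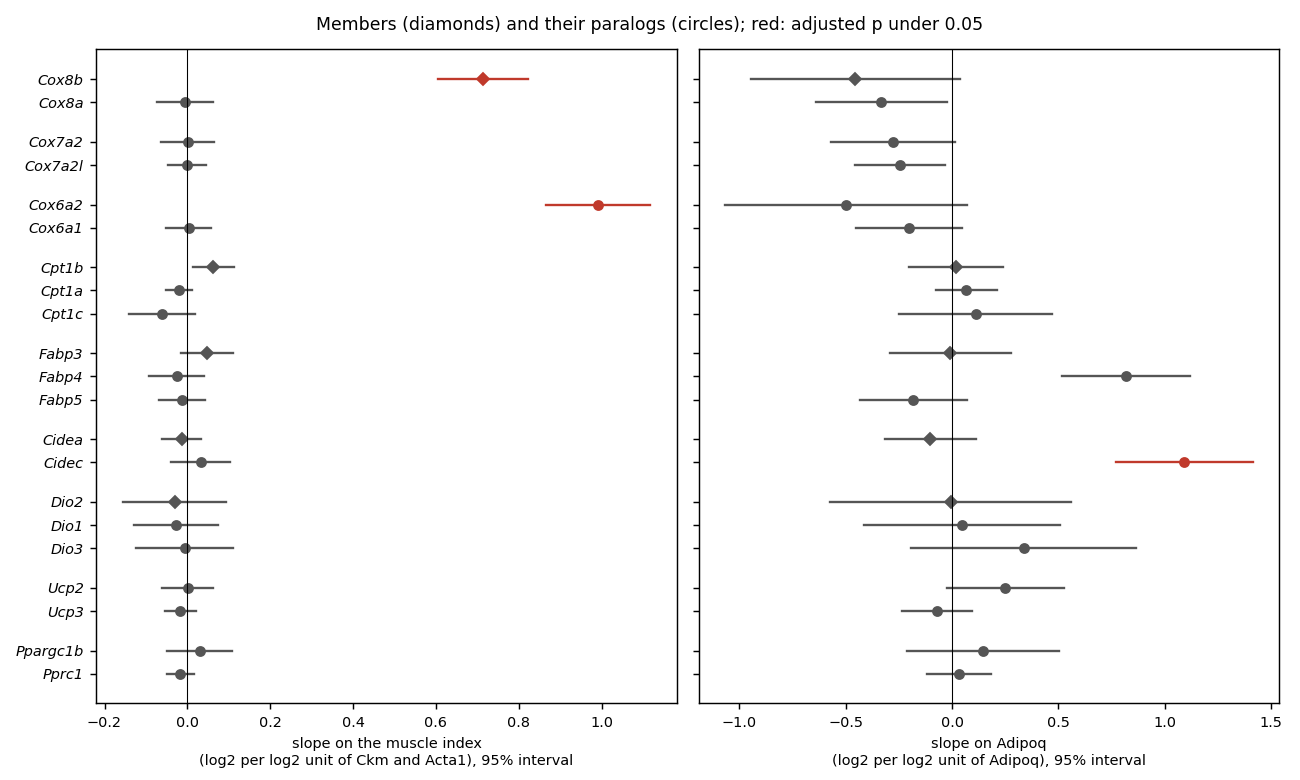
Slopes on the muscle index (left) and on Adipoq (right) with 95% intervals for the 5 tested thermogenic genes (diamonds) and related genes of the same families (circles), with adjusted p under 0.05 in red. On the left Cox8b at 0.71 and Cox6a2 at 0.99 stand away from 0, and on the right Cidec at 1.09 does.

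Cox8b is 1 of many subunits of cytochrome c oxidase, some of which have a muscle isoform. Of 13 other subunit genes tested, 1 was called with the muscle index, namely Cox6a2, the muscle isoform of subunit 6a, at 0.99 (95% interval 0.87 to 1.12, adjusted p = 1.73e-07). Its widely expressed partner Cox6a1 had a slope of 0.00 (95% interval -0.05 to 0.06). The median slope of the 13 genes was 0.00, as it was over all genes tested, of which 0.349% were called. None of the 13 was called with Adipoq, where their slopes lay between -0.54 and -0.07 with a median of -0.23. The median slope on Adipoq over all genes tested was -0.03. Sham 6 had both the lowest Adipoq value (-0.55) and the lowest 75th percentile (804.5 scanner units), and its part in these slopes was not tested.

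Most tested muscle genes were called with the index, as Cox8b was. Of 15 tested genes on the fast skeletal muscle list 13 were called with the index, with a list median of 0.81, led by the myosin heavy chains Myh1 at 1.47 and Myh8 at 1.39. That list also holds general muscle genes such as Mb and Des, so its median is not that of fast fibres alone. The 2 that were not called were Pvalb and Des, at 0.26 and 0.06. Of 9 tested genes of slow and oxidative muscle 6 were called, with a median of 0.38, led by Ckmt2, the mitochondrial creatine kinase, at 0.88 and the myosin light chain Myl3 at 0.63. Of 23 tested other genes of brown and beige fat none was called with the muscle index and 1, S100b, with Adipoq, at 0.74 (adjusted p = 0.00661). S100b is a calcium-binding protein that Schwann cells also make. Of 18 tested genes of thermogenic signalling and transcription none was called with either term, with medians of 0.00 and 0.00. At such low shares over all genes, the absence of a call on a list of this size does not set the list apart. The adrenergic receptor gene Adrb3, through which cold acts on rodent fat, had a slope of -0.03 on the muscle index and of 0.26 on Adipoq.

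Other cell types of skin were described by lists of their own. Of 17 tested white adipocyte genes 4 were called with Adipoq, with a list median of 0.43, and none with the muscle index. The share called over all genes was 0.0484% with Adipoq and 0.349% with the muscle index. All 4 calls were lost without sham 6 and with slide as a block. Of 11 sebaceous gland genes none was called with either, with medians of 0.00 and -0.07. The 5 tested genes of the inner root sheath of the hair follicle, all keratins, had slopes on Adipoq between 0.98 and 1.46 with a median of 1.13. None of them was called, at an adjusted limma p of 0.429 each, and their part in the relations with Adipoq was not tested. The 6 keratinocyte, 7 fibroblast and 5 endothelial genes had no called member in either fit.

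**Figure D4:**
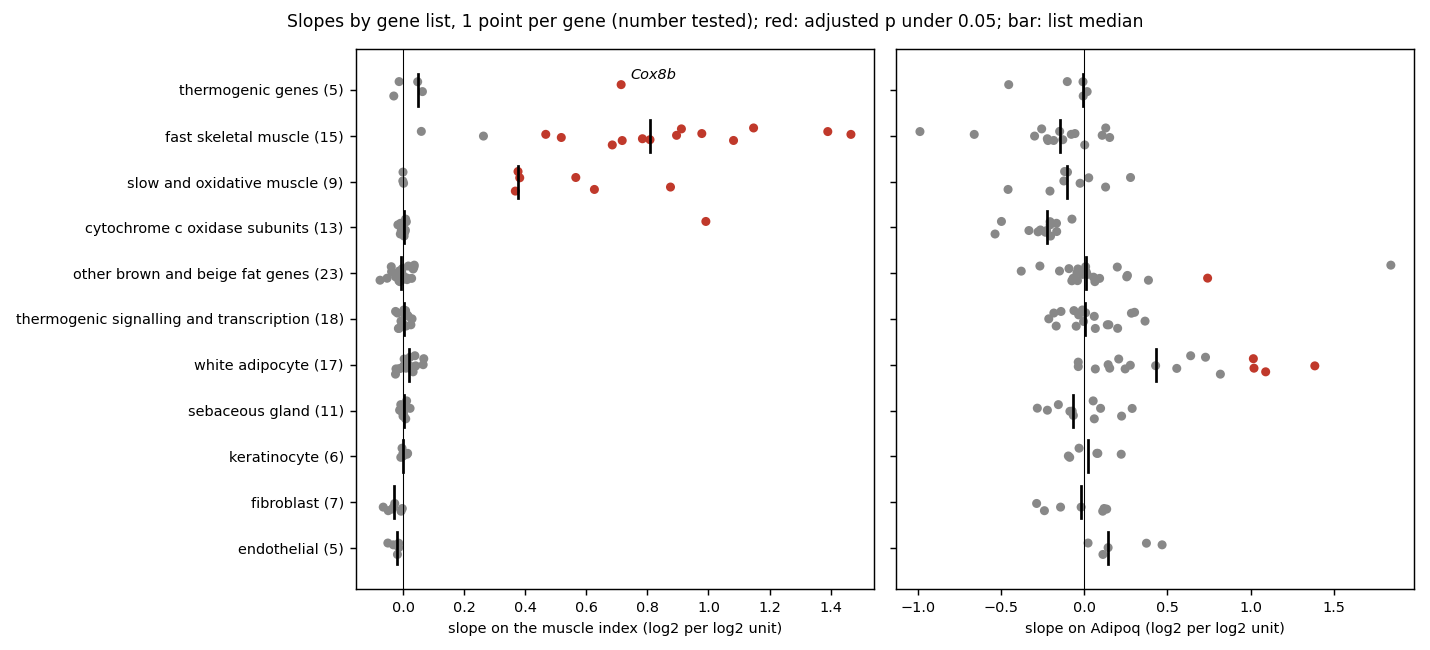
Slopes on the muscle index (left) and on Adipoq (right) for every tested gene of 11 lists, with 1 point per gene, the list median as a bar and adjusted p under 0.05 in red. On the left the fast muscle list, which also holds general muscle genes, has a median of 0.81 and Cox8b lies at 0.71, while the other 4 thermogenic genes lie between -0.03 and 0.06.

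Ranking all genes with a symbol by Pearson r over the 14 arrays gave each thermogenic gene a different neighbourhood. Nearest to Cox8b were Tnni2, a fast troponin, at r = 0.987, Cacna1s, the muscle calcium channel, at 0.985 and Mb, myoglobin, at 0.983. Nearest to Cpt1b were Chrnb1, a subunit of the muscle acetylcholine receptor, at 0.909, Ppp1r3c at 0.899 and Magix at 0.850. Nearest to Cidea were Tlcd1 at 0.941, Stimate at 0.902 and Gk, glycerol kinase, at 0.899. Gk is also on the list of other brown and beige fat genes. For Fabp3 the nearest were Cyp11b1 at 0.860, Eqtn at 0.810 and Actrt3 at 0.801, and for Dio2 Tmem115 at 0.828, Arpp21 at 0.786 and Errfi1 at 0.780. These values are the highest over all genes with a symbol and are given as descriptions.

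The comparison of exposed with sham rats asked whether the exposure changed gene expression in skin. In the limma fit 0 of 18609 genes were called, a background of 0.0%, and 636 had an unadjusted p under 0.05. The exposed minus sham difference of Cox8b was 0.85 (SE 1.02, 95% interval -1.34 to 3.04), beside differences of 1.64 for Ckm (95% interval -1.31 to 4.59) and 1.58 for Acta1 (95% interval -1.23 to 4.40). The SD of Ckm was 2.61 in exposed rats and 2.91 in sham rats. With the muscle index and Adipoq as covariates the Cox8b difference was -0.18 (SE 0.31). It was -0.02 in the fit that blocked on slide, and -0.36 and 0.65 on slides 3 and 4 taken alone. Slides 1 and 2 each held a single group, so the blocked fit drew its difference from slides 3 and 4 only. Exposed 2, the array highest in Cox8b, lay on slide 2. Over all slides, the Cox8b difference was 0.10 without exposed 2 and 1.34 without sham 5. Cox8b averaged -3.34 ± 2.15 (SD, n = 6) in exposed rats and -4.18 ± 2.02 (SD, n = 8) in sham rats. The differences of the other 4, whose intervals all included 0, were -0.05 for Cidea (95% interval -0.30 to 0.20), 0.02 for Cpt1b (95% interval -0.29 to 0.33), 0.11 for Fabp3 (95% interval -0.24 to 0.45) and 0.14 for Dio2 (95% interval -0.50 to 0.78). These intervals bound the changes that the arrays leave possible and do not show that the groups are alike. In simulated data with 200 changed genes drawn at random, 44% of differences of 0.5 and 85% of differences of 1 on the log2 scale were called. These shares are averages over genes and do not hold for Cox8b, whose SE was 1.02. Each share came from a single draw and depends on the 200 changed genes, so it does not give the chance of calling a lone changed gene.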

How the data were processed

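Skin RNA of 14 rats was measured on 1-colour Agilent arrays. The deposited scanner files hold background-subtracted spot intensity, made with Agilent Feature Extraction 10.7.3.1 per the file headers. A table of log2 values for 15168 probes, deposited by the authors with no statement of its normalization in the sources used here, served as an alternative only. Its columns correlated at 0.999 with quantile-normalized intensity in sham 1.

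Processed signals were put on the log2 scale, each array's 75th percentile was subtracted, 4259 control spots and outlier spots of 62976 were left out and spots of a probe averaged. A probe was kept when well above background on at least 6 arrays (21012 of 30367). Probes were named through RefSeq (GRCr8), which matched 59.3%, and the brightest kept probe stood for its gene. Tests used the lmFit and eBayes functions of limma 3.58.1 (R 4.3.3, two-sided p-values adjusted over all genes by Benjamini-Hochberg). Ckm, Acta1 and Adipoq were left out of the slope fits. Correlations used two-sided permutation tests with 100000 resamples, exact within groups and slides. On simulated data with 200 changed genes, 55.5% of muscle slopes of 0.1 and 61% of Adipoq slopes of 0.5 were called. The arrays lay on 4 slides. Slide 1 held 2 sham arrays and no exposed array, and slide 2 held 2 exposed arrays and no sham array. Slide 3 held 3 exposed and 3 sham arrays and slide 4 held 1 exposed and 3 sham. Cage mates are not named in the labels, and p-values treat the animals as independent. Alternatives covered background correction, normalization, filters, probe choice, slide, the index genes and leaving out each array. The number of arrays limits the precision.

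The genes and lists were chosen with earlier results of these data known. Named genes were the thermogenic genes, their paralogs, the index genes, the 3 genes most alike to each and the 2 steepest called genes of each list per fit. Other genes named were chosen after their values were seen. Upstream sequences come from RefSeq (GRCr8), where 8 of the 9 genes had an entry.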

Additional observations from a re-analysis of the deposited data

Results flagged for a closer look

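In 20 groups of values looked at (7 thermogenic genes, Ckm, Acta1 and Adipoq, each in exposed and sham rats), 2 held an array that lay far from the others of its group by the ratio of its gap to the group's range. Chance flags about 1 in 20 groups. Ucp1 was -8.06 in exposed 2, against -7.51 in the next lowest exposed array. Dio2 was -7.62 in exposed 5, against -6.28 in the next lowest. Both probes were not well above background on those arrays.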

How the results depend on the processing

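The Cox8b slope on the muscle index was called under every alternative that measured the gene, from 0.564 with normexp to 0.888 with the fast muscle list as index. Cox8b, Dio2 and Fabp3 are not among the probes used from the authors' deposited table, so 0 thermogenic genes were called there. No alternative called a gene with exposure or a thermogenic gene with Adipoq. Over all genes the number called ranged from 16 to 92 with the muscle index and from 0 to 19 with Adipoq (0 without sham 6 or with slide as a block, 19 without exposed 3). The number of correlations past the threshold was 3, against 6 on the linear scale, 1 within sham rats and 2 with quantile normalization, where Cpt1b with Acta1 was lost, within exposed rats or within slide 3. Of the paralog pairs 2 passed, against 1 within exposed rats, sham rats or slide 3, and 2 to 3 when each array was left out.

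Uncalled differences turned sign as follows, and the cause was not tested. With slide as a block the exposed minus sham difference was -0.0204 for Cox8b, -0.0748 for Cpt1b, -0.0236 for Dio2 and -0.043 for Fabp3. Within slide 3 it was 0.0802 for Cidea, -0.357 for Cox8b, -0.142 for Cpt1b and -0.315 for Dio2, and within slide 4, added after the data were seen, -0.414 for Fabp3. With muscle index and Adipoq as covariates it was 0.00707 for Cidea, -0.178 for Cox8b and -0.109 for Cpt1b, and with normexp -0.00214 for Cpt1b. The Adipoq slope turned with quantile normalization (0.118 for Cidea, 0.118 for Dio2), the deposited table (0.135 for Cidea), normexp (-0.00886 for Cpt1b), slide as a block (0.0328 for Dio2, 0.0395 for Fabp3), Acta1 alone (0.00223 for Dio2), the white adipocyte mean (0.0335 for Dio2), Ckm alone (0.00532 for Fabp3) and the fast muscle list (0.00577 for Fabp3).

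Leaving out each array in turn, the exposure difference ran from -0.114 to 0.0136 for Cidea and from -0.105 to 0.0895 for Cpt1b. It ran from 0.0986 (without exposed 2) to 1.34 (without sham 5) for Cox8b, from 0.0201 (without exposed 1) to 0.44 (without exposed 5) for Dio2 and from 0.00139 (without exposed 2) to 0.194 (without exposed 6) for Fabp3. The Dio2 slope on the muscle index ran from -0.0636 to 0.00156. Adipoq slopes ran from -0.162 to 0.0561 for Cidea, -0.578 to 0.134 for Cox8b, -0.0307 to 0.0531 for Cpt1b, -0.109 to 0.18 for Dio2 and -0.0814 to 0.185 for Fabp3. No paired analysis was possible because replicate numbers only name the arrays and pair nothing. Ucp1 and Ppargc1a were not well above background on any array and Dio2 was on 7 of 14, which limits what their values can show.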
